A study of Mus musculus with 30 samples.

Results

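The genes described here are the zinc finger protein (Zfp) genes expressed in mouse liver. Their members are the rows of the deposited expression table whose symbol is Zfp and a number, with or without further letters or digits, and whose level was 1 FPKM or more in at least 15 of 30 libraries. FPKM counts fragments scaled to transcript length and to library size, so levels can be compared between genes. Of 29117 rows, 388 carried such a symbol and 189 met the level. Members were thus chosen by their measured levels over both treatments together, so the levels are given as a description with no test. Of the other rows, 135 were under 1 FPKM in every library and 64 reached it in 1 to 14 libraries. Just inside the threshold stood Zfp595 and Zfp870 with 15 libraries each, and just outside stood Zfp799 with 14. Zfp595 averaged 1.11 FPKM in insulin and 1.01 FPKM in PBS libraries, Zfp870 averaged 0.930 FPKM in insulin and 1.01 FPKM in PBS libraries, and Zfp799 averaged 1.08 FPKM in insulin and 1.05 FPKM in PBS libraries. Of the members, 123 were at 1 FPKM or more in all 30 libraries and 66 were not, and no member reached it in libraries of 1 treatment alone.

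The libraries came from the left liver lobe of C57BL/6J mice, an inbred strain, aged 10 weeks. Each mouse was kept without food for 12 to 16 h before an injection into the peritoneum: human insulin (0.7 U/kg), or PBS, a buffered salt solution, as vehicle. Liver was taken at 5 sampling points over 4 h, with 3 insulin and 3 PBS libraries at each point, 15 per treatment in all. The labels number the points from 1 to 5 and give no minutes, so no order in time is assumed, and no uninjected group was part of the design. A whole lobe holds hepatocytes and other cells, and in such bulk RNA fewer cells of a type and less RNA per cell cannot be told apart.

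Most Zfp proteins carry C2H2 zinc fingers, short loops held by a zinc ion through paired cysteines and histidines, and arrays of them read DNA sequence. Many mammalian C2H2 proteins also carry a KRAB domain, which binds the corepressor Trim28 and through it brings histone H3 lysine 9 methylation to chromatin, best known at transposable elements. Many KRAB genes arose by repeated local duplication and lie in clusters, some of which hold near-identical copies. The symbol also covers proteins of other kinds: the Zfp36 family has CCCH fingers, binds AU-rich elements in mRNA and recruits the CCR4-NOT deadenylase, and Zfp598 is a ubiquitin ligase that recognises collided ribosomes.

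Reading frames of the GENCODE M21 annotation were translated and searched for these features. A KRAB signature was found in 84 members and not in the other 105. A second pattern for the signature was added after the first missed members on chromosome 2, so the class was not fixed beforehand. A missing match does not show that the domain is absent, so the other class may hold KRAB genes too. Members with the signature had 6 to 30 C2H2 fingers with a median of 11, and members without it had up to 31 with a median of 7. Pairs of CCCH fingers were found in 3 members, those of the Zfp36 family. Zfp125 is annotated with no protein.

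The Zfp genes as a group were expressed at low level. The median of the members' mean levels was 2.60 FPKM, 9 members averaged over 10 FPKM, 119 averaged 2 to 10 FPKM and 61 averaged less than 2 FPKM. The median was 2.21 FPKM for KRAB members and 3.17 FPKM for the others. Summed over all members, insulin libraries held 636 to 836 FPKM with a median of 738, and PBS libraries held 701 to 797 FPKM with a median of 740, so the ranges overlapped. The 84 KRAB members together made up 203 to 292 FPKM in insulin libraries (median 257) and 213 to 261 FPKM in PBS libraries (median 225).

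The 6 most abundant members were Zfp36l1, Zfp91, Zfp207, Zfp36, Zfp445 and Zfp706. Zfp36l1, a CCCH protein that promotes mRNA decay, averaged 36.3 ± 11.0 FPKM in insulin libraries and 37.7 ± 7.26 FPKM in PBS libraries (SD, n = 15 each). Zfp91, a C2H2 protein, averaged 26.6 ± 2.19 FPKM in insulin libraries and 23.3 ± 2.02 FPKM in PBS libraries. Its symbol is used by 2 rows of the table, of which 1 met the level. Zfp207, a microtubule-binding partner of the checkpoint protein Bub3, averaged 20.0 ± 7.53 FPKM in insulin libraries and 23.5 ± 5.79 FPKM in PBS libraries. Zfp36, known as tristetraprolin, averaged 21.0 ± 8.97 FPKM in insulin libraries and 19.0 ± 4.93 FPKM in PBS libraries. Zfp445, a KRAB protein that helps to maintain DNA methylation at imprinted loci, averaged 19.2 ± 4.30 FPKM in insulin libraries and 17.9 ± 4.05 FPKM in PBS libraries. Zfp706, a small protein with 1 C2H2 finger, averaged 16.8 ± 0.996 FPKM in insulin libraries and 16.5 ± 1.51 FPKM in PBS libraries. The spreads (mean ± SD) of neighbours in this order overlapped, except those of Zfp36l1 and Zfp91 in PBS libraries.

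**Figure D1:**
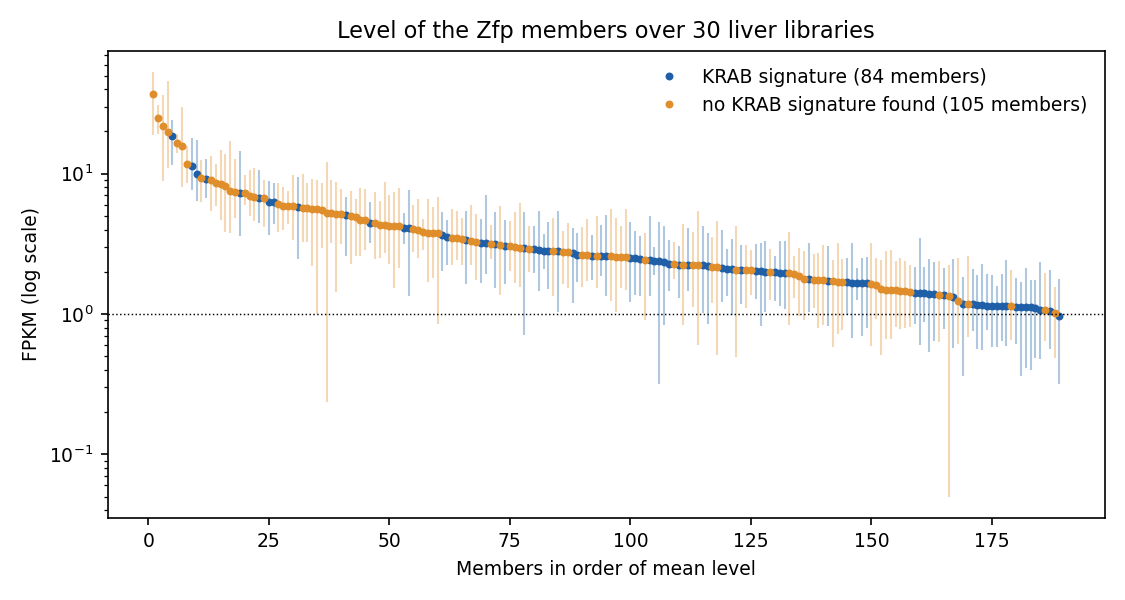
Level of the 189 members in 30 libraries, in order of mean level, on a log axis in FPKM. Points are means and lines run from the lowest to the highest library, blue for members with a KRAB signature and orange for the others; the dotted line marks 1 FPKM, and the line of Zfp414, which has no value in 1 library, is drawn to 0.05. Only 9 members average over 10 FPKM, and most lie between 1 and 10.

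Averaged over the 5 points and as deposited, more KRAB members were called higher than lower after insulin. More of the other members were lower than higher, as were more of all genes tested. The split of the other members did not hold under other scalings, and with base composition removed the medians of both classes were alike. Insulin was compared with PBS in a limma fit of log2(FPKM + 1) over the 13589 genes that reached 1 FPKM in 3 libraries or more, with Benjamini-Hochberg adjustment over all of them and a threshold of 0.05. A difference is given as insulin minus PBS on the log2(FPKM + 1) scale, which understates the change of low genes. Of the 189 members, 22 were higher and 35 were lower on average, against 7.89% higher and 37.6% lower among all genes tested, 45.5% together. Of the 84 KRAB members, 18 were higher (21.4%) and 3 were lower (3.57%), with a median difference of 0.06. Among the 18 were 5 of the chromosome 2 members for which the second KRAB pattern was added. Of the 105 others, 4 were higher (3.81%) and 32 were lower (30.5%), with a median of -0.09. Both of these shares were below those of all genes. The median over all genes tested was -0.13. Among 58 genes of other zinc finger symbol families under the same level rule, such as Zbtb and Zscan, 9 were higher and 20 were lower. The same comparison over the 123 members at 1 FPKM in all 30 libraries gave 16 higher and 19 lower.

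These counts moved with the scaling of the libraries and with the base composition of the transcripts. Dividing each library by its median ratio to the gene means moved the median of all genes tested to -0.02. It gave 52 members higher and 19 lower, against 19.2% higher and 21.3% lower among all genes, 40.5% together. KRAB members were then 34 higher and 0 lower with a median of 0.16, and the others 18 higher and 19 lower with a median of 0.01. The average difference of a gene also went with the GC content of its longest annotated transcript, with a Spearman correlation across genes of -0.58 over the 189 members and -0.58 over 13580 genes, which are not independent replicates. The median GC content was 39.8% for members higher on average, 56.8% for members lower on average and 49.4% for all genes tested. KRAB transcripts had a median GC content of 40.3%, and those of the other members 48.6%. With the trend on GC content removed in each library, 25 members were higher and 12 were lower, against 12.9% higher and 13% lower among all genes, 26% together. KRAB members were then 12 higher, 3 lower and 69 not called, and the others 13 higher and 9 lower. The median difference was 0.02 for KRAB members, 46 of 84 being positive, and 0.02 for the others.

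Genes were split into 5 equal groups by transcript GC content. In the lowest group, KRAB members had a median average difference of 0.09 (n = 66, 16 higher and 1 lower) and other members one of 0.02 (n = 34, 2 higher and 3 lower). The median of all genes in that group was 0.06. In the highest group, the 26 members without the signature had a median of -0.29, with 20 lower and 0 higher, and all genes there had a median of -0.32. The part of base composition and of library scaling in the differences was not tested further. All insulin libraries ran on lanes 1 and 2 and all PBS libraries on lanes 3 to 5. Thus the lane and the treatment cannot be told apart. PBS replicates 1, 2 and 3 ran on lanes 3, 4 and 5, so leaving out a PBS replicate at every point leaves out a lane. Insulin replicate 2 ran on lane 1 and insulin replicate 3 on lane 2.

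**Figure D2:**
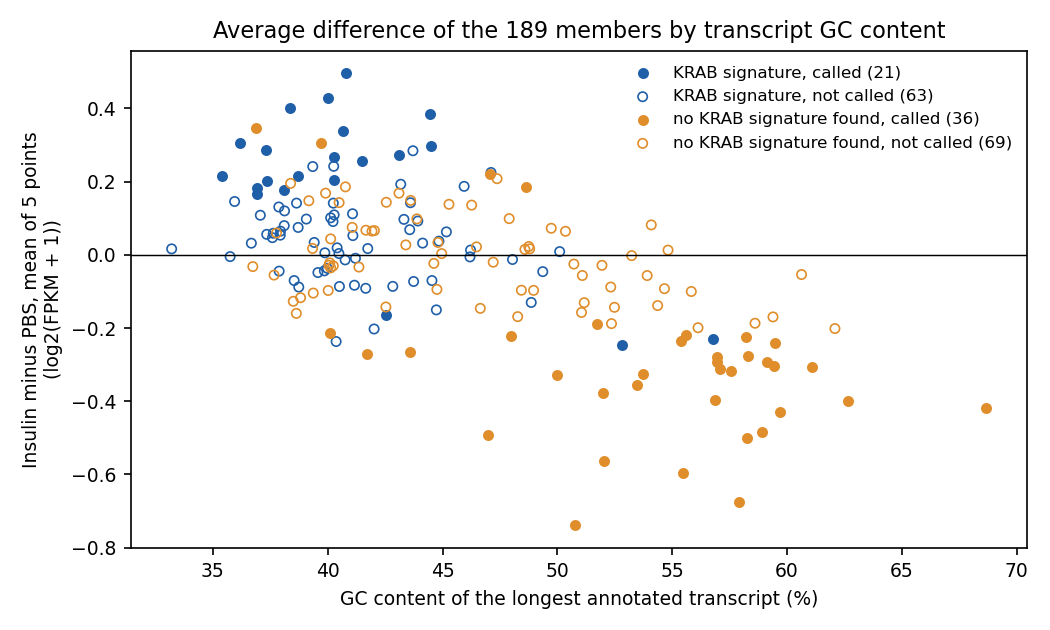
Average insulin minus PBS difference of each member, in log2(FPKM + 1), against the GC content of its longest annotated transcript in percent. Blue points carry a KRAB signature, orange points do not, and filled points passed an adjusted p of 0.05. Filled points above 0 lie at low GC content and most filled points below 0 at high GC content, with a Spearman correlation of -0.58 over the 189 members.

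A smaller set of members kept its direction and its call under all 3 scalings of the average. It held 15 members higher in insulin, 11 of them with a KRAB signature: Zfp970, Zfp871, Zfp119b, Zfp189, Zfp948, Zfp612, Zfp966, Zfp967, Zfp58, Zfp963 and Zfp968. The other 4 were Zfp654, Zfp131, Zfp106 and Zfp91. It held 5 members lower in insulin, Zfp467, Zfp710, Zfp444, Zfp787 and Zfp750, and none of these has the signature. The scalings were applied to the same libraries and are not separate evidence. The share of all genes that kept a call under all 3 is not given, so these counts do not set members against all genes.

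**Figure D3:**
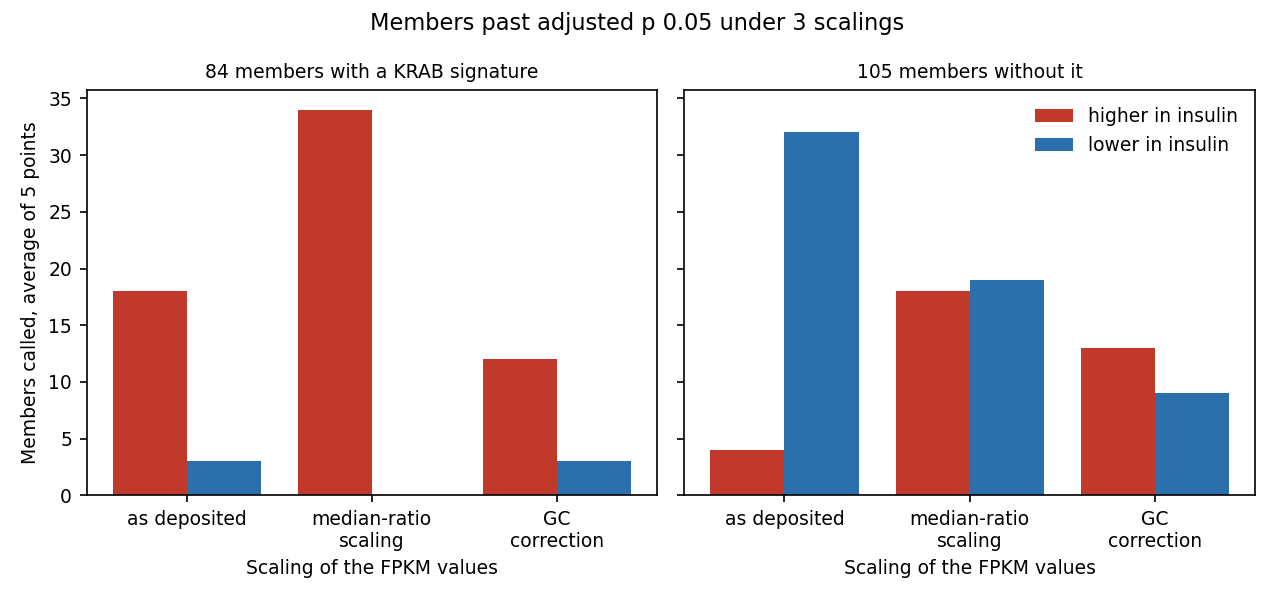
Members past an adjusted p of 0.05 for the average of the 5 points, higher (red) or lower (blue) in insulin, for 84 KRAB members on the left and 105 others on the right, under 3 scalings of the FPKM values. KRAB members have 18, 34 and 12 higher and 3, 0 and 3 lower calls, and the others have 4, 18 and 13 higher and 32, 19 and 9 lower calls; with GC correction 69 of the 84 KRAB members are not called.

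By sampling point, all member calls but 1 came at points 3, 4 and 5. At point 1 no member passed the adjusted threshold in limma, against 0.00736% of all genes. At an unadjusted p under 0.05, 5 members were higher and 2 lower there, against 211 and 867 of the 13589 genes tested. At point 2 a lone member, Zfp691, was lower, against 0.736% of all genes lower, 0.618% higher and 1.35% together. The counts at point 3 were 9 higher and 5 lower, against 2.19% higher, 7.26% lower and 9.45% together among all genes. Point 4 had 5 members higher and 7 lower, against 2.82% higher, 10.4% lower and 13.2% together. Point 5 had 7 higher and 11 lower, against 2.96% higher, 16.1% lower and 19.1% together. These 45 calls belonged to 37 members, 30 of them called at 1 point, 6 at 2 points and 1 at 3 points. No member was called higher at 1 point and lower at another.

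KRAB members made up 7 of the 9 higher calls at point 3, 4 of 5 at point 4 and 6 of 7 at point 5. They made up 0 of the 5 lower calls at point 3, 0 of 7 at point 4 and 2 of 11 at point 5. With the GC trend removed they made up 6 of 10 higher calls at point 3, 2 of 5 at point 4 and 2 of 7 at point 5, so that they were no longer the majority at points 4 and 5.

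Median-ratio scaling left no member call at point 1 (all genes 0.00736% higher, 0.0147% lower, 0.0221% together) or point 2 (1.07%, 0.419% and 1.49%). Under it 20 members were higher and 1 lower at point 3, against 4.89% and 3.83% of all genes (8.72% together). Point 4 then gave 17 higher and 4 lower, against 6.34% and 6.34% (12.7% together). Point 5 gave 18 higher and 4 lower, against 8.09% and 8.71% (16.8% together). With the GC trend removed there was no call at point 1 (all genes 0.00736% each way, 0.0147% together) and 1 higher at point 2 (0.993%, 0.405% and 1.4%). Point 3 then gave 10 higher and 2 lower, against 2.9% and 1.87% of all genes (4.77% together). Point 4 gave 5 higher and 1 lower, against 4.4% and 3.32% (7.72% together). Point 5 gave 7 higher and 2 lower, against 3.97% and 3.77% (7.73% together). Insulin replicate 1 had the lowest median-ratio factors, 0.836 to 0.911, against 0.941 to 1.05 for the other insulin libraries and 0.940 to 1.11 for PBS. Without it, point 3 had 5 members higher and 0 lower as deposited. Point 4 then had 2 higher and 4 lower, point 5 had 3 and 3, and the average had 29 and 19. Leaving out libraries in turn, 1 of the point or a replicate at every point, gave 4 to 6 higher and 0 to 4 lower at point 3. It gave 2 to 7 and 2 to 9 at point 4, and 3 to 9 and 3 to 9 at point 5. All-gene shares are not given for these leave-outs, so the counts do not set members against all genes.

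**Figure D4:**
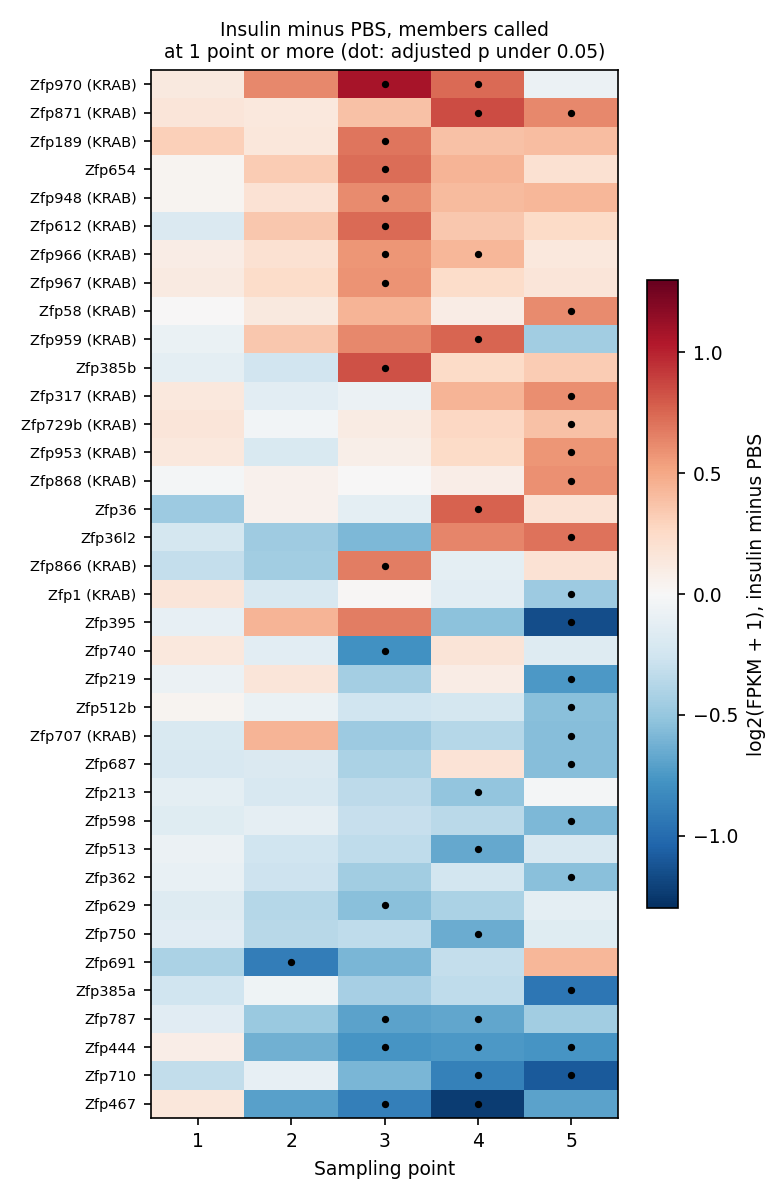
Insulin minus PBS difference in log2(FPKM + 1) at sampling points 1 to 5 for the 37 members called at 1 point or more, ordered by their average difference; red is higher and blue lower in insulin, and dots mark an adjusted p under 0.05. The upper rows are mostly KRAB members called higher at points 3 to 5, and the lower rows are mostly members without the signature called lower at the same points.

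Zfp970, a KRAB protein gene with 14 C2H2 fingers on chromosome 2 (chr2:177464733-177478129, plus strand, GRCm38), had the largest positive difference at a point of the 189 members as deposited. At point 3 its values were 14.5, 13.6 and 14.5 FPKM in insulin libraries, against 5.51, 6.26 and 7.06 FPKM in PBS libraries. Every insulin value was above every PBS value, and the difference was 1.07 ± 0.19 (SE, adjusted p = 0.000959). At point 4 it had 10.3, 13.6 and 8.28 FPKM in insulin libraries and 5.89, 6.35 and 5.51 FPKM in PBS libraries, a difference of 0.74 (adjusted p = 0.0126). At point 2 the groups did not overlap but the difference of 0.62 did not pass (adjusted p = 0.0897). At points 1 and 5 the treatments overlapped, with differences of 0.12 and -0.08. The call at point 3 held in all 18 alternatives run. The call at point 4 was lost without insulin replicate 2 (difference 0.57, adjusted p = 0.087), without PBS replicate 3 (0.70, adjusted p = 0.0536), without insulin replicate 1 at every point (0.75, adjusted p = 0.056) and in a fit of the 6 libraries of the point alone.

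Zfp970 lies in a stretch of 9 KRAB members between 175372436 and 178078476 on chromosome 2, a window chosen after the values were seen. On average 5 of the 9 were higher in insulin and 0 lower, against 7.89% and 37.6% of all genes: Zfp970, Zfp965, Zfp966, Zfp967 and Zfp968. Zfp965 lost its call (0.16, adjusted p = 0.083) with the GC trend removed, and the other 4 kept it. Zfp966 had 1.79, 1.83 and 2.43 FPKM in insulin libraries at point 3, against 0.863, 1.10 and 1.10 FPKM in PBS libraries, a difference of 0.57 (adjusted p = 0.013). Zfp967 had 4.66, 3.80 and 7.07 FPKM in insulin libraries at that point and 2.75, 3.18 and 3.17 FPKM in PBS libraries, a difference of 0.58 (adjusted p = 0.036). For both genes the groups did not overlap. The call of Zfp967 was lost without insulin replicate 3 (0.37, adjusted p = 0.178), without insulin replicate 1 (0.63, adjusted p = 0.0628) and without each PBS library in turn (0.53 to 0.61, adjusted p 0.0744 to 0.109). The remaining members, Zfp969, Zfp971, Zfp973 and Zfp931, had average differences of 0.24, 0.02, 0.11 and 0.02, none past the test.

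The promoters of these genes are close copies. RefSeq promoter sequences on GRCm38.p6 were matched for 156 of the 189 members, and for 8 of the 9 in this stretch the 250 bases before the start could be aligned. Over 28 pairs the promoters were 93.6% to 100% identical across 178 to 250 aligned bases, with a median of 99.0%. Those of Zfp970 and Zfp966 were 99.2% identical over 245 bases. These bases lie before the RefSeq start of the transcript, and how alike the transcripts are was not measured. If the transcripts are as alike, they can share reads. The split of reads was made in the authors' quantification, so the separate values are uncertain.

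The 250 bases before the RefSeq start of 6 members are printed 5′ to 3′. They show the near-identical chromosome 2 pair and another KRAB member that was higher (Zfp871). Also shown are a pair of members that were lower (Zfp467 and Zfp710) and the gene of tristetraprolin. RefSeq starts can differ from the GENCODE gene positions given in the text, and the window of Zfp970 ends past its GENCODE start. Capitals mark a CCAAT box (CCAAT, or ATTGG on the other strand) and a GC box (GGGCGG, or CCGCCC on the other strand).
Zfp970 (chr2:177464492-177464741, plus strand): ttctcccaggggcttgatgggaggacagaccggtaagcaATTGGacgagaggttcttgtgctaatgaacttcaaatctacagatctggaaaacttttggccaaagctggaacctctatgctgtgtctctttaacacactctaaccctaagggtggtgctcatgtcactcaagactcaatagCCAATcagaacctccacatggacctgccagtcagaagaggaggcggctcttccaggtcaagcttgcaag
Zfp966 (chr2:175931101-175931350, minus strand): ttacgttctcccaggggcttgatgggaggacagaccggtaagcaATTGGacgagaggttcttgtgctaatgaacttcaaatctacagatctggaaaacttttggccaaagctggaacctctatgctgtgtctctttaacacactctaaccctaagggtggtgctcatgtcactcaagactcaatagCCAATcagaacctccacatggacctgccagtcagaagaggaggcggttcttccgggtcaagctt
Zfp871 (chr17:32788288-32788537, minus strand): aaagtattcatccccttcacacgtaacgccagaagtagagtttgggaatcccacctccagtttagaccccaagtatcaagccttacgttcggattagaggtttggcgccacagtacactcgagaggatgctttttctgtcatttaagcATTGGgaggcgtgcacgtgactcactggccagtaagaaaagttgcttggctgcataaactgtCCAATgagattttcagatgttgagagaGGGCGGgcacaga
Zfp467 (chr6:48445091-48445340, minus strand): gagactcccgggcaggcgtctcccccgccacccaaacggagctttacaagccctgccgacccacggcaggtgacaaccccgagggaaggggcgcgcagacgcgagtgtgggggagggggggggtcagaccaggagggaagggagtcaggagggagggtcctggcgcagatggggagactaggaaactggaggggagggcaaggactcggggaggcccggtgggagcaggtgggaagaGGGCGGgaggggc
Zfp710 (chr7:80024564-80024813, plus strand): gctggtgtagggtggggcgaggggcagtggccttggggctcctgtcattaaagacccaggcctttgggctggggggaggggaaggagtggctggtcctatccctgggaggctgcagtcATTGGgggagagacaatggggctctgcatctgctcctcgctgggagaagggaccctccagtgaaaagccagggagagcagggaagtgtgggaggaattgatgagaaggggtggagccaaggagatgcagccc
Zfp36 (chr7:28379229-28379478, minus strand): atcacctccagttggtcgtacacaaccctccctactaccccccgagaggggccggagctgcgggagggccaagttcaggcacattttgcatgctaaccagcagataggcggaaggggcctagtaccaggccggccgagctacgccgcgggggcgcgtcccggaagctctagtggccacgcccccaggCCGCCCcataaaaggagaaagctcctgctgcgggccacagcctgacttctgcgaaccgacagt

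Zfp970 and Zfp966 each hold 2 CCAAT boxes and no GC box. Zfp871 holds 2 CCAAT boxes and 1 GC box. Zfp467 and Zfp36 hold 1 GC box each and no CCAAT box, and Zfp710 holds 1 CCAAT box. A CCAAT box on either strand occurred in 64.4% of 73 KRAB promoters, in 43.4% of 83 promoters of other members and in 37.0% of 8601 promoters of genes tested. A GC box occurred in 38.4% of KRAB promoters, 56.6% of those of other members and 58.8% of all. The median GC content of these windows was 50.8% for KRAB members and 59.6% for all genes tested. These matches describe letters in a window and do not show binding.

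Zfp871, a KRAB protein gene with 15 C2H2 fingers on chromosome 17 (chr17:32765496-32788287, minus strand), had the smallest adjusted p of the members for the average. At point 4 it had 15.4, 17.4 and 16.0 FPKM in insulin libraries and 9.86, 8.85 and 7.21 FPKM in PBS libraries, a gap of 0.85 ± 0.14 (SE, adjusted p = 0.000442). At point 5 it had 13.5, 14.2 and 11.3 FPKM in insulin libraries and 6.62, 8.82 and 8.96 FPKM in PBS libraries, a difference of 0.62 (adjusted p = 0.00373). At both points every insulin value exceeded every PBS value. The average difference was 0.43 ± 0.06 (SE, adjusted p = 1.2e-05), with medians of 11.3 FPKM in insulin and 8.10 FPKM in PBS libraries (n = 15 each).

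Elsewhere on chromosome 17, a run of 12 KRAB members within 21008903 to 22867134 held 5 members higher on average and 0 lower. These were Zfp948, Zfp944, Zfp758, Zfp942 and Zfp946, with differences of 0.34, 0.22, 0.22, 0.20 and 0.18, where 7.89% of all genes were higher and 37.6% lower. Zfp948 kept its call (0.28) with the GC trend removed, and the other 4 lost it (0.05 to 0.12). Zfp948 was called at point 3, with 1.93, 2.45 and 1.60 FPKM in insulin libraries and 1.10, 0.863 and 0.849 FPKM in PBS libraries, a difference of 0.62 (adjusted p = 0.024). Its groups did not overlap, and the call was lost in 7 of 18 alternatives. In a run of 10 members on chromosome 13, 9 of them with the signature, 3 were higher and 0 lower, against the same all-gene shares. They were Zfp58, Zfp729b and Zfp953, each also called at point 5. Of these 3, Zfp58 alone kept its call on average with the GC trend removed (0.21, adjusted p = 0.047). A run of 6 members on chromosome 7 (127233061 to 127885996), 1 of them with the signature, held 5 lower and 0 higher, among them Zfp771, Zfp768 and Zfp629, against the 37.6% of all genes that were lower. None of these 5 passed with the GC trend removed (differences -0.10 to 0.09), and Zfp768 stood at -0.09. In all, 68 members lay in 12 runs of at least 3 with gaps of at most 500 kb. Those described were not all of them, and others had fewer or mixed calls. The run of 7 members on chromosome 17 that holds Zfp871, 6 of them with the signature, had 1 higher and 2 lower. A run of 7 on chromosome 7 (29768552 to 30169750, 4 with the signature) and a run of 3 KRAB members on chromosome 9 had 0 higher and 0 lower. A run of 5 KRAB members on chromosome 8 had 1 higher and 0 lower.

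Other members higher at point 3 were Zfp385b (0.83), Zfp612 (0.73), Zfp654 (0.73), Zfp189 (0.69) and Zfp866 (0.67), of which Zfp612, Zfp189 and Zfp866 carry the KRAB signature. Zfp385b, a relative of the p53 cofactor gene Zfp385a, had 9.75, 13.9 and 17.1 FPKM in insulin libraries at point 3, against 7.26, 5.51 and 8.62 FPKM in PBS libraries, without overlap. Zfp654 had 4.21, 6.03 and 5.37 FPKM in insulin libraries and 2.49, 2.94 and 2.72 FPKM in PBS libraries at that point. The calls of Zfp385b, Zfp189 and Zfp866 were lost in 6, 8 and 8 of 18 alternatives, and those of Zfp612 and Zfp654 in 1 each. At point 4 Zfp959 was higher by 0.76, a call lost in 9 of 18 alternatives. At point 5 Zfp317 (0.60), Zfp868 (0.59), Zfp58 (0.61), Zfp953 (0.57) and Zfp729b (0.38) were higher, all 5 with the signature. In that order these calls were lost in 10, 7, 6, 3 and 8 of 18 alternatives, with GC correction among the losses for all but Zfp868. Without insulin replicate 1 the difference of Zfp317 was 0.36 (adjusted p = 0.291). On average Zfp119b was higher by 0.40 and Zfp131, a BTB-domain protein gene, by 0.31, and neither was called at a point.

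The Zfp36 family varied among the insulin points, and 2 of its 3 genes were called higher at a point. Zfp36l2 had 27.8, 19.9 and 29.9 FPKM in insulin libraries and 18.9, 15.8 and 13.8 FPKM in PBS libraries at point 4, where the difference of 0.64 did not pass (adjusted p = 0.051). At point 5 it had 19.3, 28.6 and 24.4 FPKM in insulin libraries and 12.0, 12.8 and 18.7 FPKM in PBS libraries, and rose by 0.70 ± 0.22 (SE, adjusted p = 0.026). At points 1, 2 and 3 its differences were -0.23, -0.46 and -0.58, none past the test. Its difference depended on the point (limma F test, adjusted p = 0.027), and it varied among insulin points (adjusted p = 3.9e-05). The group means of insulin libraries ran from 9.73 FPKM at point 2 to 25.9 FPKM at point 4. The call at point 5 was lost without insulin replicate 2 (0.57, adjusted p = 0.0937), without insulin replicate 3 (0.69, adjusted p = 0.0644), without PBS replicate 1 (0.59, adjusted p = 0.0928) and without PBS replicate 2 (0.63, adjusted p = 0.0832).

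Zfp36 had 24.5, 12.9 and 45.6 FPKM in insulin libraries and 14.3, 11.1 and 17.3 FPKM in PBS libraries at point 4. The groups overlapped, and the difference of 0.76 ± 0.26 (SE) only just passed (adjusted p = 0.0488). It was 0.33 (adjusted p = 0.281) without insulin replicate 3, the highest of the 3 values, and the call was also lost without insulin replicate 1 and without each PBS library in turn (0.61 to 0.91, adjusted p 0.0622 to 0.157). Zfp36l1 had 18.9, 21.6 and 24.0 FPKM in insulin libraries and 41.7, 34.4 and 32.2 FPKM in PBS libraries at point 3. These groups did not overlap, but the difference of -0.72 did not pass (adjusted p = 0.064). All 3 genes passed the F test among insulin points and none passed it among PBS points. Each of the 3, and 68 of the 189 members in all, overlaps a gene on the opposite strand, and the strand setting of the quantification is not given in the sources used here.

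Genes that work with this family were followed as lists. Of 9 measured textbook targets of tristetraprolin, 5 were higher and 1 lower at point 2, and 3 were higher and 1 lower at point 4, against 0.618% and 0.736%, and 2.82% and 10.4%, of all genes. At point 2 the phosphatase gene Dusp1 was higher by 2.30 ± 0.26 (SE, adjusted p = 8.8e-06), Plk3 by 2.27 and Fos by 2.06, while Nfkbia, the gene of the NF-kappaB inhibitor, was lower by 0.95. The target list shares Fos, Dusp1, Ier3 and Myc with a list of immediate early genes. Others of that list also moved at point 2: Nr4a1 stood at 4.84, Atf3 at 3.11 and Klf10 at -1.94. Whether the targets moved apart from such genes was not tested. At that point Zfp36 itself had 22.5, 31.6 and 25.7 FPKM in insulin libraries and 21.9, 27.4 and 27.3 FPKM in PBS libraries, a difference of 0.05. Of 20 CCR4-NOT and decay genes, 1 was higher and 0 lower at point 2, and 1 was higher and 1 lower at points 3 and 4 each. At point 3 the shares of all genes were 2.19% higher and 7.26% lower. Counts of 1 in 20 do not set this list apart from the all-gene shares. Tob1, whose protein links the deadenylase to poly(A)-binding protein, was higher by 0.98 at point 2, Cnot8 was lower by 0.55 at point 3, and Cnot3 was lower by 0.73 at point 4.

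Zfp395 was the other member whose difference depended on the point (F test, adjusted p = 0.0187). At point 5 it had 4.96, 6.81 and 3.83 FPKM in insulin libraries and 11.8, 12.0 and 13.7 FPKM in PBS libraries. All 3 insulin values lay below all PBS values, and the difference was -1.15 ± 0.25 (SE, adjusted p = 0.0033), which held in all 18 alternatives run. At point 3 it had 8.23, 13.9 and 8.96 FPKM in insulin libraries and 5.46, 6.54 and 6.10 FPKM in PBS libraries. This difference of 0.66 did not pass as deposited (adjusted p = 0.088), though the groups did not overlap. PBS libraries ranged among points too, from a group mean of 5.61 FPKM at point 2 to 12.5 FPKM at point 5, and the F test among PBS points did not pass as deposited (adjusted p = 0.052) but passed under median-ratio scaling (adjusted p = 0.0186). Across all genes 1.77% had a difference that depended on the point (2.44% under median-ratio scaling, 2.63% with the GC trend removed), against 2, 2 and 4 of the 189 members.

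**Figure D5:**
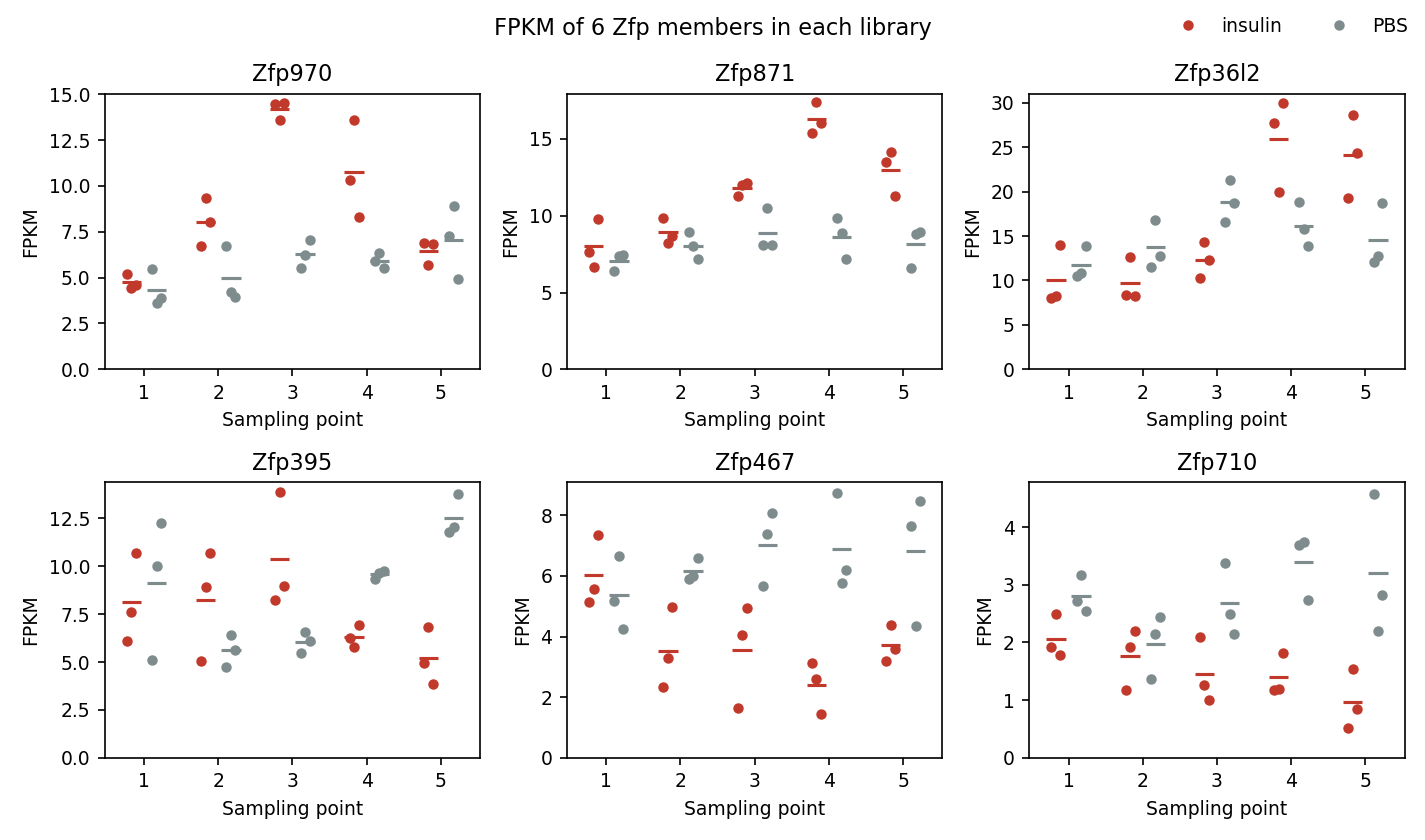
FPKM of Zfp970, Zfp871, Zfp36l2, Zfp395, Zfp467 and Zfp710 in each library at sampling points 1 to 5, insulin in red to the left and PBS in grey to the right; points are libraries and bars are means of 3. Zfp970 peaks at 14.5 FPKM in insulin libraries at point 3, Zfp395 separates downward at point 5, and Zfp467 and Zfp710 lie lower in insulin libraries at point 4.

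Zfp467 and Zfp710 were among the members without a KRAB signature that were lower at a point. Zfp467, a C2H2 protein known to promote adipocyte differentiation, had 3.11, 2.61 and 1.44 FPKM in insulin libraries at point 4, against 8.73, 5.77 and 6.20 FPKM in PBS libraries, a difference of -1.24 ± 0.27 (SE, adjusted p = 0.00499). Its groups did not overlap at points 3 and 4, and the call at point 3 (-0.89, adjusted p = 0.0378) was lost without insulin replicate 1 (-0.54, adjusted p = 0.21). It was lost there too without insulin replicate 2 and without each PBS library in turn (-1.02 to -0.79, adjusted p 0.0509 to 0.131). At point 4 it was -0.88 (adjusted p = 0.051) with the GC trend removed. Zfp710 had 0.510, 1.53 and 0.850 FPKM in insulin libraries at point 5 and 4.58, 2.20 and 2.83 FPKM in PBS libraries. That difference was -1.09 ± 0.22 (SE, adjusted p = 0.00192), the groups did not overlap, and the call was kept in 17 of 18 alternatives.

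Zfp444 was the member called at 3 points. It had 2.64, 4.21 and 4.49 FPKM in insulin libraries at point 3 and 7.77, 7.35 and 6.07 FPKM in PBS libraries, with differences of -0.77, -0.75 and -0.77 at points 3, 4 and 5. These calls were lost in 12, 9 and 10 of 18 alternatives, median-ratio scaling and GC correction among them. The average of -0.56 ± 0.11 (SE, adjusted p = 0.000175) held in all 16 alternatives run. Zfp787, the nearest other member on chromosome 7, averaged 6.84 ± 1.44 FPKM in insulin libraries and 10.0 ± 2.00 FPKM in PBS libraries (SD, n = 15 each), and was lower by 0.70 at point 3 and 0.68 at point 4. Its point calls were lost in 10 and 11 of 18 alternatives, while its average of -0.49 held in all 16. Zfp750, whose protein drives epidermal differentiation, had 1.80, 1.66 and 1.77 FPKM in insulin libraries and 2.88, 3.53 and 3.47 FPKM in PBS libraries at point 4, a difference of -0.64 (adjusted p = 0.0082).

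Zfp385a, a p53 cofactor gene, had 0.846, 1.63 and 1.33 FPKM in insulin libraries at point 5, against 2.69, 2.47 and 5.16 FPKM in PBS libraries, a difference of -0.93 (adjusted p = 0.013). With the GC trend removed it was -0.40 (adjusted p = 0.226), and the call was lost in 6 of 18 alternatives. Further members lower at a point were Zfp740 and Zfp629 at point 3 (-0.79 and -0.55), and Zfp513 and Zfp213 at point 4 (-0.66 and -0.51). In that order these calls were lost in 6, 12, 12 and 9 of 18 alternatives, and all 4 were lost with the GC trend removed (-0.60, -0.29, -0.24 and -0.12). At point 5 they were Zfp219 (-0.74), Zfp687, Zfp707 and Zfp512b (-0.55 each), Zfp362 (-0.54) and Zfp1 (-0.47), of which Zfp707 and Zfp1 carry the KRAB signature. None of these 6 passed with the GC trend removed (-0.32 to -0.12). The calls of Zfp219, Zfp687 and Zfp707 were lost in 11, 13 and 10 of 18 alternatives. Zfp691 was lower by 0.90 at point 2, with 0.840, 1.25 and 1.02 FPKM in insulin libraries and 2.27, 2.05 and 4.41 FPKM in PBS libraries. That call had an adjusted p of 0.046 and was lost in 13 of 18 alternatives. Zfp697, Zfp276 and Zfp524 were lower on average (-0.74, -0.50 and -0.48) with no call at a point. With the GC trend removed Zfp276 stood at -0.19 (adjusted p = 0.239) and Zfp524 at -0.16 (adjusted p = 0.267), and neither passed. Zfp697 spans 98382461 to 98753812 on chromosome 3 and overlaps 13 genes on the opposite strand, among them the liver-expressed Hsd3b genes. Its values ran from 0.237 to 7.57 FPKM in insulin libraries and from 0.318 to 12.2 FPKM in PBS libraries, and its call was lost in 12 of 16 alternatives.

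Zfp598 was lower at point 5, with 6.26, 7.80 and 7.61 FPKM in insulin libraries and 12.5, 10.8 and 10.6 FPKM in PBS libraries, a difference of -0.59 ± 0.13 (SE, adjusted p = 0.0048). The groups did not overlap. With the GC trend removed the difference was -0.11 (adjusted p = 0.57). Of 16 other genes of ribosome collision and quality control, 3 were lower and 0 higher at that point, against 16.1% and 2.96% of all genes: the collision kinase gene Map3k20 (-0.76), the collision sensor gene Edf1 (-0.55) and Rack1 (-0.42), a part of the small ribosomal subunit. On average 2 of the 16 were higher and 8 lower as deposited, against 7.89% and 37.6% of all genes. They were 5 and 3 under median-ratio scaling and 1 and 2 with the GC trend removed.

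Partners of KRAB proteins were followed as a list. Of 21 measured corepressor and heterochromatin genes, 1 was higher and 6 were lower on average, against 7.89% and 37.6% of all genes. Under median-ratio scaling 6 were higher and 3 lower, and with the GC trend removed 4 and 1. At single points as deposited Trim28, the KRAB corepressor, was lower by 0.87 ± 0.23 (SE, adjusted p = 0.0102) at point 5, and Atf7ip, a partner of the histone methyltransferase Setdb1, was lower by 0.62 (adjusted p = 0.00843) at point 3. Chd3, a chromatin remodeller, was lower by 0.46 at point 5 and Morc3 was higher by 0.54 at point 4.

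Within each treatment, members varied among points mainly in insulin libraries. Of the 189, 43 differed among the 5 insulin points, against 13.3% of all genes, and 1 among the 5 PBS points, against 3.27% of all genes. Under median-ratio scaling the counts were 48 and 3, against 16% and 4.11%, and with the GC trend removed 48 and 5, against 17.3% and 4.46%. At an unadjusted p under 0.05 the counts as deposited were 74 and 20 of the 189, against 3494 and 1945 of the 13589 genes tested. Whether the 2 treatments differ in this was tested only gene by gene, by the F test that 2 members passed. Of the 43, 15 had their highest insulin mean at point 5 and 21 had their lowest at point 2. The range of their insulin group means had a median of 0.71 on the log2(FPKM + 1) scale, and the range of their PBS group means one of 0.33. The 43 were chosen for varying among insulin points, so a wider insulin range was built into that choice and is no separate result. The 43 became 15, 10 and 17 without insulin replicates 1, 2 and 3 at every point, and 32, 34 and 33 without PBS replicates 1, 2 and 3. All-gene shares are not given for these fits.

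The smallest adjusted p values among insulin points belonged to Zfp36l2, Zfp970, Zfp871, Zfp825, Zfp955a and Zfp445. Zfp825 was highest at point 1, with 8.15, 9.62 and 10.6 FPKM in insulin libraries, and lowest at point 3, with 4.42, 4.64 and 5.89 FPKM (adjusted p = 0.0007). Zfp955a had 1.15, 1.03 and 1.14 FPKM in insulin libraries at point 2 and 3.32, 2.56 and 2.49 FPKM at point 5 (adjusted p = 0.00077). Zfp445 was the lone member that also varied among PBS points (adjusted p = 0.0072). It had 21.1, 22.6 and 23.9 FPKM in insulin libraries and 23.4, 24.0 and 21.9 FPKM in PBS libraries at point 4. At point 1 it had 12.7, 17.9 and 13.8 FPKM in insulin libraries and 15.0, 11.6 and 13.5 FPKM in PBS libraries, so both treatments were higher at point 4 than at point 1.

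Markers of other cells and of RNA quality were read against the all-gene shares of 7.89% higher and 37.6% lower on average. Hepatocyte markers summed to 43334 to 58997 FPKM in insulin libraries and 48391 to 59841 FPKM in PBS libraries, with 1 of 11 markers higher and 4 lower on average. Of 10 Kupffer and macrophage markers, 6 were lower on average and 0 higher, with sums of 82.9 to 162 FPKM in insulin libraries and 122 to 312 FPKM in PBS libraries. Of 10 sinusoidal endothelial markers, 8 were lower and 0 higher, with sums of 59.96 to 90.02 FPKM in insulin libraries and 81.2 to 112 FPKM in PBS libraries. Of 10 stellate cell markers 4 were lower, of 3 measured cholangiocyte markers 1, of 5 erythroid markers 1 and of 3 measured lymphocyte and neutrophil markers 0. Under median-ratio scaling the lower calls were 5 of the Kupffer, 4 of the endothelial and 2 of the stellate markers, and with the GC trend removed they were 1, 2 and 1. Mitochondrial and ribosomal RNA summed to 38786 to 111313 FPKM in insulin libraries (median 44999.5) and 31972 to 49190 FPKM in PBS libraries (median 41509.1), so the ranges overlapped. The part of these shifts in the member differences was not tested.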

How the data were processed

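Poly(A) RNA from mouse liver was sequenced in 30 libraries made with a strand-specific kit. Per the submitters' processing notes the authors used HISAT2 2.1.0, SAMtools 1.9, StringTie 2.0.3 and GRCm38/mm10, and deposited FPKM per gene; the annotation and the strand setting were not stated there. Reads could not be recovered from the FPKM values (30.6% to 40.8% came out whole within 0.05), so depth is unknown and no counting interval is given. Of all cells, 32.2% hold no value and were set to 0, which touched 1 member.

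The members and lists were chosen with earlier results of these data known. Limma 3.58.1 in R 4.3.3 was fitted to log2(FPKM + 1) with 10 group means (20 residual degrees of freedom, trended variance). P-values were Benjamini-Hochberg adjusted over 13589 genes. Nothing in the labels says whether libraries of a group came from separate animals, so p-values measure the spread between these libraries. The code was tested on simulated data. Named members were, per comparison, up to 8 in each direction by size among those past 0.05, up to 6 by adjusted p per F test, the Zfp36 family, the 6 with the highest mean and those at the threshold, and up to 4 genes of each list. GENCODE M21 gave positions, transcripts and translated reading frames (29066 of 29117 IDs matched), and RefSeq gave promoters. A second KRAB pattern was added after the first missed the chromosome 2 members. Sequences were handled with Python 3.11.15, pandas 2.3.3 and Biopython 1.88. Alternatives were other pseudocounts, filters, scalings, a replicate block, lane as a random effect and libraries left out; GC correction (loess, span 0.5) was chosen after seeing the data.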

Additional observations from a re-analysis of the deposited data

Results flagged for a closer look

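The insulin minus PBS difference of Zfp395 depended on the sampling point (limma F test, adjusted p = 0.0187). It was 0.66 at point 3, which did not pass, and -1.15 at point 5, which did. The interaction was lost in 6 of 16 alternatives, with adjusted p between 0.0039 and 0.132 over all of them. Leaving out each replicate series of 5 libraries in turn lost it for every series but insulin replicate 1.

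The difference of Zfp36l2 also depended on the point (limma F test, adjusted p = 0.027). It was -0.58 at point 3, which did not pass, and 0.70 at point 5, which did. The interaction was lost in 6 of 16 alternatives, with adjusted p between 0.00436 and 0.215. Leaving out each replicate series of 5 libraries in turn lost it for every series but insulin replicate 2.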

How the results depend on the processing

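Counts of members are given as higher and lower in insulin, beside 0 and 1, 9 and 5, 5 and 7, and 7 and 11 at points 2 to 5 and 22 and 35 on average as deposited. A pseudocount of 0.1 gave 2 lower at point 2 and 3 higher at point 4. Without a filter on low values there were 0 lower at point 2, then 5 and 1, 2 and 4, and 4 and 6 at the next points, 0 differences that depended on the point and 2 members that varied within PBS. Testing genes at 1 FPKM in 15 libraries, or leaving missing cells missing, gave 2 within PBS. Median-ratio scaling gave 0 lower at point 2, 20 and 1, 17 and 4, 18 and 4, and 52 and 19 on average, with 3 within PBS. Quantile normalization gave 0 lower at point 2, 19 and 1, 21 and 3, 23 and 4, and 60 and 14 on average, with 3 within PBS. All-gene shares are given in this report only as deposited, under median-ratio scaling and under GC correction. Counts under the other settings therefore do not set members against all genes. Lane as a random effect gave 0 lower at point 2 and 2 within PBS. GC correction gave 1 higher and 0 lower at point 2, 2 lower at point 3, 1 at point 4, 2 at point 5 and 12 on average, with 4 that depended on the point and 5 within PBS. GC correction with the replicate block gave 1 higher at point 2, 3, 2, 2 and 13 lower at points 3, 4, 5 and on average, and 3 within PBS. The 6 libraries of a point alone gave 0 lower at point 2, then 5 higher, 0 and 0, and 0 and 2 at the next points.

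Leaving out libraries gave 0 to 1 higher and 0 to 3 lower at point 2, then 4 to 6 and 0 to 4, 2 to 7 and 2 to 9, and 3 to 9 and 3 to 9 at the next points, and 13 to 29 and 19 to 33 on average. It gave 0 to 1 differences that depended on the point, below 2 each time, 10 to 34 members that varied within insulin, below 43 each time, and 0 to 2 within PBS.

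Replicate numbers did not pair the libraries: 1 of 15 correlations of same-numbered deviations was over 0.1 (-0.11 to 0.12), and 5 of 15 libraries correlated best with their own number. With the replicate block, 3 members were lower at point 2 and 2 varied within PBS. Over 66 named results and 1138 alternatives, 818 calls held, 320 were lost and 0 reversed; 27 of the 66 held in every leave-out. The cause of lost calls was not tested. Depth is unknown, so what it limits could not be set.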
